A study of Mus musculus with 4 samples.

Results

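Regions of open chromatin that were called in cultured mouse monocytes of both genotypes, were called in neither culture of their progenitors, and lie at the end of a protein-coding gene are described here. Overlapping intervals of 4 peak lists were merged over chromosomes 1 to 19 and X, and a region was kept if it had an interval in both monocyte lists, none in either progenitor list, and at least 1 base within 1 kb of an annotated gene end. This selected 1077 of 120423 regions, and of the 19397 regions at gene ends they were 5.55%. They covered 269 kb in all and lay within 1 kb of 1142 ends of 1110 protein-coding genes, which is 5.13% of the 21631 genes examined. A gene or end is called touched below if a region lay within that distance of it. Most of them, 977, touched a single gene, 100 touched 2 or more, and 68 genes had 2 or more of them.

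The 4 libraries came from bone marrow-derived cells of C57BL/6J mice, 1 library in each group: monocytes lacking the chemokine receptor gene Cxcr3 (Cxcr3-/-), wild-type (WT) monocytes, Cxcr3-/- common myeloid progenitors with granulocyte-monocyte progenitors (CMP/GMP), and WT CMP/GMP. The labels name hepatocellular carcinoma as disease state for all 4, whereas the series' design describes cultured cells, so it is not clear whether the donor animals carried tumours. They do not give the deleted part of Cxcr3, the age of the animals, the culture conditions or how the cell types were separated. The assay was Omni-ATAC-seq: a transposase cuts loosely packed DNA and tags the ends for sequencing. With 1 library in each group, genotypes within a cell type have no replicate and were not tested. The difference between monocytes and CMP/GMP chose the regions and was not tested either, and every interval given below is an exact 95% interval that covers counting error only.

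CMP and GMP are marrow progenitors that give rise to granulocytes and monocytes, and monocytes leave the marrow for blood and tissue, where they can become macrophages. A gene's start, its 5′ end, carries the promoter from which transcription begins. Many promoters are rich in CpG dinucleotides and stay open in most cell types, whereas CpG-poor promoters more often belong to genes used by few cell types and are opened by factors such as PU.1, C/EBP, AP-1 and IRF proteins in myeloid cells. Accessible sites that differ between cell types lie mostly far from promoters.

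Promoter sequences of 6 genes with a selected region over the start are shown first, as examples. They were chosen after the values had been seen and run 5′ to 3′ on the gene's strand, from 250 bases before to 50 after the RefSeq start nearest the annotated 5′ end (GRCm38.p6). Capitals mark matches, on either strand, to the letters TGANTCA of AP-1, GAAANNGAA of interferon regulatory factors (IRF), TATAAA of the TATA box, and GGGCGG of the GC box bound by SP and KLF factors. The 6 are not a representative set, as each has a match and most have AP-1 letters. AP-1 letters were in 21.7% of the 138 promoters under a selected region. The promoters of Ltc4s, Ccl22 and Slamf1, also with a selected region over the start, have none of these matches. The promoters of the C5a receptor gene C5ar1 (chr7:16259289-16259588, minus strand), the filamin-binding protein gene Fblim1 (chr4:141606003-141606302, minus strand), the collagenase gene Mmp13 (chr9:7272264-7272563, plus strand), the macrophage glycoprotein gene Gpnmb (chr6:49036268-49036567, plus strand), the protease-activated receptor gene F2rl2 (chr13:95696670-95696969, plus strand) and the Rab exchange factor gene Sbf2 (chr7:110614871-110615170, minus strand) read:
C5ar1: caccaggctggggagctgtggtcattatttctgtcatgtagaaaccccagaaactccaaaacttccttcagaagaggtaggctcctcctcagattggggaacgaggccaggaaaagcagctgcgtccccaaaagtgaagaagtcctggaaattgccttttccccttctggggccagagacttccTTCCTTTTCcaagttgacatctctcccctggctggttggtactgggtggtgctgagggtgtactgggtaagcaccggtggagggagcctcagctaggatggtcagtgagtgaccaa
Fblim1: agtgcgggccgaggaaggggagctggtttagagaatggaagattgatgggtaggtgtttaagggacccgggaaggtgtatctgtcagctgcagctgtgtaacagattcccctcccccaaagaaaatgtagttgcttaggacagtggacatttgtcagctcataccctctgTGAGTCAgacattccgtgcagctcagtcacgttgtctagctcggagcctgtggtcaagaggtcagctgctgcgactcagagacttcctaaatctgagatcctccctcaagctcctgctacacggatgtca
Mmp13: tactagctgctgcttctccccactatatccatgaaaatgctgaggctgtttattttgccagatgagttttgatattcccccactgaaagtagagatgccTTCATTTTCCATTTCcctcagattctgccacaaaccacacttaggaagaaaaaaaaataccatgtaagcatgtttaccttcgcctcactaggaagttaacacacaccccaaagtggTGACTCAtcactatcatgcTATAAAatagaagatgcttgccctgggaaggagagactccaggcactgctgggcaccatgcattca
Gpnmb: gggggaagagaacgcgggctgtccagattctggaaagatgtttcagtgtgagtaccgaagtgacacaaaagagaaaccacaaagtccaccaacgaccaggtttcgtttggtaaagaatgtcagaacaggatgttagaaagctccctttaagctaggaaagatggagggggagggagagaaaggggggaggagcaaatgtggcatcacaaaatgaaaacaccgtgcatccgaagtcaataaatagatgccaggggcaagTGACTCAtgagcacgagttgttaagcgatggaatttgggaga
F2rl2: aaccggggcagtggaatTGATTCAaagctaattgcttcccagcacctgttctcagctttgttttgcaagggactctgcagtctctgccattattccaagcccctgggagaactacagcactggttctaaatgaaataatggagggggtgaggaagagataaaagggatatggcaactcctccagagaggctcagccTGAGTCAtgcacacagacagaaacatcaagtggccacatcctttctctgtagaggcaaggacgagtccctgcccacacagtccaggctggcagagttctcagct
Sbf2: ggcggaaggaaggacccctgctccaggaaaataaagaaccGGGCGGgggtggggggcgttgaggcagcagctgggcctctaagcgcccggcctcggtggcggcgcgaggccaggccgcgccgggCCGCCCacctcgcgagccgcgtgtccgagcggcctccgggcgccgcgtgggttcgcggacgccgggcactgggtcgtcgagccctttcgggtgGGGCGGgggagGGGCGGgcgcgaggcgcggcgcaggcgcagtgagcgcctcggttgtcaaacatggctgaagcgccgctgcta
The start used for C5ar1 lies 202 bp from the annotated end of that gene, and the other 5 lie within 14 bp of theirs. The ratio of observed to expected CpG was 0.0722 for Mmp13, 0.104 for F2rl2, 0.140 for C5ar1, 0.394 for Fblim1, 0.592 for Gpnmb and 1.04 for Sbf2. Every AP-1, IRF and TATA match shown for C5ar1, Fblim1, Mmp13 and Gpnmb falls inside the selected region. In F2rl2 the AP-1 match nearer the start does and the other does not, and in Sbf2 the 2 GC boxes nearest the start do and the 2 farther ones do not.

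The selected regions were weaker and narrower than regions called in every library, but as strong as other monocyte-only regions. The contrast with regions called in all 4 is partly set by the rule. Width is that of the merged intervals, so regions that merge intervals of more lists tend to be wider. Barring a CMP/GMP call also favours weak regions. The number of tags piled up at a region's summit, a whole number recovered from the deposited statistics, had a median of 16 in Cxcr3-/- monocytes (range 6 to 98) and of 20 in WT monocytes (range 5 to 122). Regions at gene ends called in all 4 libraries, 11903 in number, had medians of 42 tags in Cxcr3-/- and 58 in WT monocytes. The 16285 monocyte-only regions away from gene ends had the same medians as the selected ones, 16 tags in Cxcr3-/- and 20 in WT monocytes. The median width was 217 bp, against 235 bp for the monocyte-only regions away from gene ends, 261 bp for the 771 CMP/GMP-only regions at gene ends and 681 bp for those called in all 4. A missing CMP/GMP call is not proof of closed chromatin. At equal accessibility after scaling, 315 of the 1077 regions (29.2%), at 334 genes, would have reached the median tag number of called intervals in both CMP/GMP libraries. These medians were 29 tags in Cxcr3-/- and 21 tags in WT, and the other regions would have fallen short of at least 1 of them. They are not the detection limit: called intervals went down to 9 tags in Cxcr3-/- and 7 in WT CMP/GMP, with 10th percentiles of 15 and 11. The median over the selected regions would have been 25.6 tags in Cxcr3-/- and 15.6 in WT CMP/GMP.

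**Figure D1:**
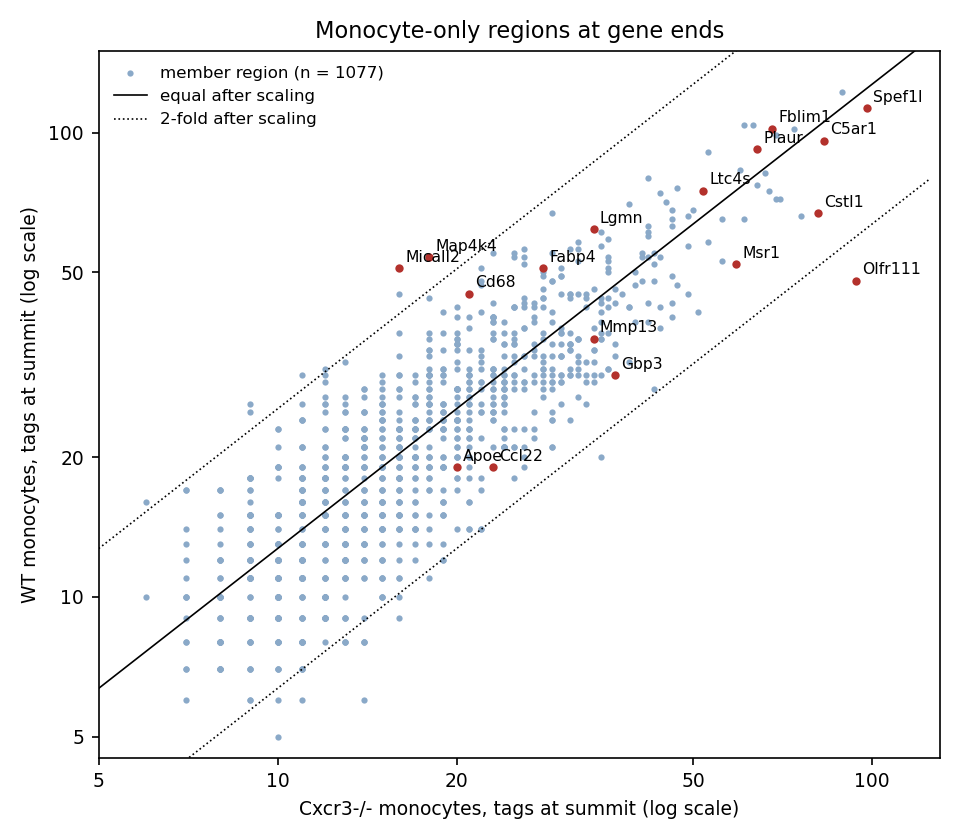
Tags at the summit of each selected region in Cxcr3-/- monocytes (x axis, log scale) and WT monocytes (y axis, log scale), 1 point per region (n = 1077), with some genes named in red. The solid line marks equal values after scaling and the dotted lines a 2-fold difference; most points sit below 50 tags on both axes, and Olfr111, Map4k4 and Micall2 are among the points outside the dotted lines.

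The strongest regions, which the rule picked on these same tag counts, sat at genes of varied function. The highest lay at Spef1l, with 98 tags in Cxcr3-/- and 113 in WT monocytes. The next lay within Gnb3, which encodes a G protein beta subunit, 890 bp from the 3′ end of the cell division gene Cdca3, with 89 tags in Cxcr3-/- and 122 in WT monocytes. C5ar1, the receptor through which the complement fragment C5a acts on myeloid cells, had 83 tags in Cxcr3-/- and 96 in WT monocytes over its start (chr7:16259120-16259584). Both monocyte libraries were high at all 3 of these regions.

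Regions of ranks 4 to 12 were of similar strength. They lay at Naa80, which encodes the enzyme that acetylates actin, with 74 tags in Cxcr3-/- and 102 in WT monocytes, and at Fblim1 (chr4:141605894-141606323), which links filamin to the adhesion machinery, with 68 tags in Cxcr3-/- and 102 in WT monocytes. They also lay at Sh2d4a, at the calcium-entry regulator gene Cracr2b beside the tetraspanin gene Cd151, at the respiratory chain gene Ndufs8 beside the proton pump gene Tcirg1, and at Plaur, the urokinase receptor, with 64 tags in Cxcr3-/- and 92 in WT monocytes. The last 3 were at Cstl1, the olfactory receptor gene Olfr111 and the bile acid enzyme gene Cyp8b1, all at a 3′ end, and at Cyp8b1 the tags were 66 in Cxcr3-/- and 82 in WT monocytes. Of the genes with 2 or more regions, Plaur had a second one, with 30 tags in Cxcr3-/- and 37 in WT monocytes, and Sbf2 had 3 regions of 25 to 35 tags in Cxcr3-/- and 21 to 41 in WT monocytes.

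No gap in distance marked the 1 kb limit. Just inside it lay a region 1000 bp from the start of Cacybp, with 36 tags in Cxcr3-/- and 31 in WT monocytes, and regions 998 bp from the ends of Bhlhe40 and Tspan1. Just outside it, at 1001 bp from Ap3d1, a region had 28 tags in Cxcr3-/- and 43 in WT monocytes, and one at 1004 bp from Srgap3 had 55 in Cxcr3-/- and 59 in WT monocytes.

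Of 25 gene lists with 681 matched symbols, 80 genes had a selected region, against 5.13% of all protein-coding genes. The largest shares were in phagocytosis, Fc receptor and complement genes (15 of 59, 25.4%, 15.0 to 38.4), interferon response genes (7 of 30, 23.3%, 9.93 to 42.3), macrophage genes (9 of 39, 23.1%, 11.1 to 39.3) and lipid and cholesterol genes (8 of 38, 21.1%, 9.55 to 37.3). Regions called in all 4 libraries were also common at these lists, at 41 of 59, 24 of 30, 21 of 39 and 27 of 38 genes in the same order, against 53.9% of all genes, and CMP/GMP-only regions were at 6.78%, 0%, 2.56% and 5.26% against 3.82% of all genes. The lists overlap, and no test was made of them.

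**Figure D2:**
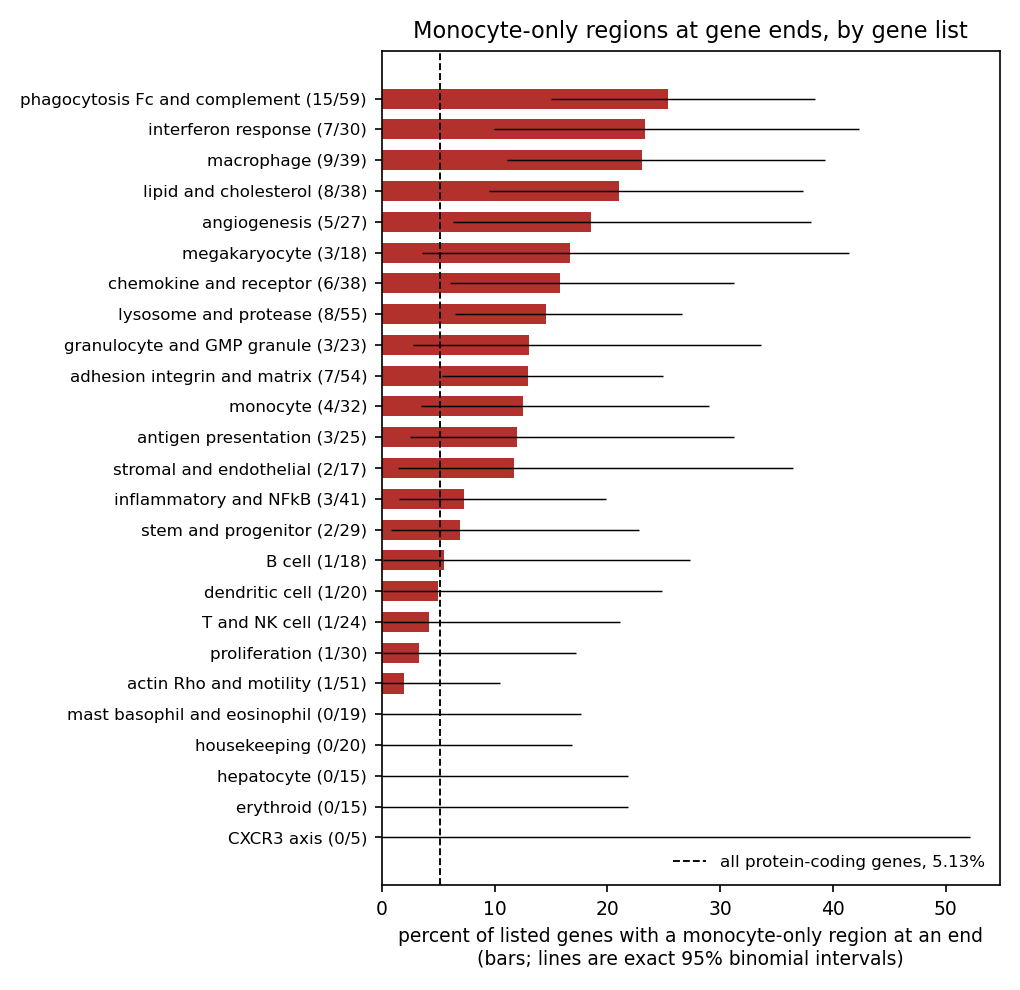
Percent of the genes of each list with a selected region at an end (bars, with exact 95% intervals as lines and counts in parentheses); the dashed line is the 5.13% of all protein-coding genes. The top 4 lists lie between 21.1% and 25.4%, and 5 lists have none.

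Among macrophage genes, the scavenger receptor gene Msr1, whose product takes up modified lipoproteins, had the strongest region, with 59 tags in Cxcr3-/- and 52 in WT monocytes. Fabp4, a fatty acid carrier of macrophages and fat cells, had 28 tags in Cxcr3-/- and 51 in WT monocytes. Cd68, an endosomal glycoprotein, had 21 tags in Cxcr3-/- and 45 in WT monocytes at its 3′ end. C1qa, which encodes a chain of the first complement component, had 20 tags in Cxcr3-/- and 34 in WT monocytes at its annotated end. Gpnmb had 2 regions, the one over its start with 23 tags in Cxcr3-/- and 40 in WT monocytes. Apoe, the apolipoprotein that macrophages secrete, had 20 tags in Cxcr3-/- and 19 in WT monocytes at its start, in a region that also lies at the 3′ end of Tomm40. Mertk, a receptor for dying cells, Folr2, a folate receptor, and Mmp12, the macrophage elastase, had 13 to 17 tags in Cxcr3-/- and 18 to 26 in WT monocytes. In this list the unscaled Cxcr3-/- value was above the WT value only at Msr1 and Apoe. A selected region does not mean that the gene was called in monocytes alone. Other regions at the ends of Cd68 reached 134 tags in Cxcr3-/- and 66 in WT CMP/GMP. Those of Mertk reached 41 in Cxcr3-/- and 24 in WT CMP/GMP, whereas C1qa had no CMP/GMP call at an end.

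Phagocytosis, Fc receptor and complement genes added C5ar1, by far the strongest, and weaker regions at paired immune receptor genes. Fcgr4, an activating receptor for antibodies, had 23 tags in Cxcr3-/- and 40 in WT monocytes, beside a region called in all 4 libraries. Cd300ld had 24 tags in Cxcr3-/- and 39 in WT monocytes. Regions at C5ar2, the second C5a receptor, and at Clec4a2, Lilrb4a, Pilra, Pilrb1, Pilrb2, Trem1 and Trem3 had 8 to 22 tags in Cxcr3-/- and 14 to 28 in WT monocytes, and Trem1 and Trem3 share 1 region. Pilrb1 and Pilrb2, like Ifit3 and Ifit3b, are closely related copies, so the assignment of their reads is uncertain.

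Interferon response genes had mostly weak regions. Gbp3, a guanylate-binding protein, led with 37 tags in Cxcr3-/- and 30 in WT monocytes. Ifi205, Ifit3, Eif2ak2, Oas1a, Oas2 and Gbp7, whose products sense or restrict viral nucleic acid or microbes, had 7 to 13 tags in Cxcr3-/- and 7 to 15 in WT monocytes. In 5 of the 7 genes the region lay within 1 kb of the 5′ end, at a gap of 31 to 522 bp, and did not cover it. The region at Eif2ak2, 522 bp from that start, lies 9 bp from the start of Gm26637.

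Lipid genes were led by Ltc4s, the enzyme that makes leukotriene C4, whose region over the start (chr11:50238453-50238816) had 52 tags in Cxcr3-/- and 75 in WT monocytes. Regions at Cyp27a1, Pltp, Apoc2, Ptgs1 and Abca1, which act in sterol breakdown, lipid transfer, prostaglandin synthesis and cholesterol export, had 9 to 17 tags in Cxcr3-/- and 9 to 24 in WT monocytes. Lysosome and protease genes had 8 of 55 (14.5%), led by the palmitoyl thioesterase gene Ppt1 with 42 tags in Cxcr3-/- and 54 in WT monocytes, and the endopeptidase gene Lgmn with 34 in Cxcr3-/- and 62 in WT monocytes, both at the 3′ end.

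Chemokine and receptor genes had 6 of 38 (15.8%). Ccl7, which attracts monocytes through CCR2, had 31 tags in Cxcr3-/- and 45 in WT monocytes over its annotated end, and Ccr3, an eosinophil chemokine receptor, had 18 in Cxcr3-/- and 36 in WT monocytes. Weaker regions lay at Cxcl3, Cxcl5, Cxcl12 and Ppbp, at 9 to 21 tags in Cxcr3-/- and 13 to 29 in WT monocytes. None of the 5 genes of the CXCR3 axis was touched, and 4 of them had a region called in all 4 libraries. Adhesion and matrix genes had 7 of 54: Plaur, then Mmp13 with 34 tags in Cxcr3-/- and 36 in WT monocytes, Adam8 with 30 in Cxcr3-/- and 45 in WT, Mmp9 with 24 in Cxcr3-/- and 35 in WT, and Mmp12, Mmp27 and the protease inhibitor gene Timp1 below. Angiogenesis genes had 5 of 27 (18.5%), with 13 to 28 tags in Cxcr3-/- and 9 to 31 in WT monocytes. They were the Notch ligand genes Jag1 and Dll4, the growth factor genes Pdgfb and Areg, and the matrix protein gene Ccn1.

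The monocyte list itself had 4 of 32 (12.5%, 3.51 to 29.0), with Lyz2 at 31 tags in Cxcr3-/- and 35 in WT monocytes, Csf1r at 26 in Cxcr3-/- and 28 in WT, Fcgr4 as above and Spn at 18 in Cxcr3-/- and 34 in WT. Of the same 32 genes, 23 had a region called in all 4 libraries, so most of these genes had an end that was called in the progenitor cultures too. Antigen presentation genes had 3 of 25, inflammatory genes 3 of 41, including the interleukin genes Il12b (26 tags in Cxcr3-/- and 44 in WT monocytes) and Il18 (33 in Cxcr3-/- and 26 in WT), and dendritic cell genes 1 of 20, the chemokine gene Ccl22 with 23 tags in Cxcr3-/- and 19 in WT monocytes. Actin and motility genes had 1 of 51, Rhob, and proliferation genes 1 of 30, Cenpe. Of lists of other lineages, megakaryocyte genes had 3 of 18 (16.7%, 3.58 to 41.4), namely F2rl2, Selp and Ppbp, granulocyte genes 3 of 23 (Ly6g, Prtn3 and Mmp9), stromal and endothelial genes 2 of 17 (Eng and Cdh5), stem and progenitor genes 2 of 29 (Slamf1 and Ly6a), B cell genes 1 of 18 (Ms4a1) and T and NK cell genes 1 of 24 (Tcf7). The first 3 of these shares were close to or above that of the monocyte list. No housekeeping gene of 20, erythroid gene of 15, hepatocyte gene of 15, or mast cell, basophil and eosinophil gene of 19 had one, and 19 of the 20 housekeeping genes had a region called in all 4.

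Markers of other cell types were read in the same libraries. The progenitor genes Mpo, Elane and Ms4a3 had no call at an end in either monocyte library. Their highest values in the progenitors were 82, 56 and 72 tags in Cxcr3-/- CMP/GMP and 48, 25 and 40 in WT CMP/GMP. All 10 progenitor markers were called in each CMP/GMP library and 7 of 10 in each monocyte library, while the 10 monocyte markers were called at 8 in Cxcr3-/- and 10 in WT monocytes, and also at 10 in Cxcr3-/- and 9 in WT CMP/GMP. The 6 macrophage markers were called at 5 in Cxcr3-/- monocytes, 6 in WT monocytes and 4 in each CMP/GMP library. Of 6 neutrophil markers 2 were called in each monocyte library, and the selected regions included 1 at Ly6g with 22 tags in each, while Ltf, Ngp, Cxcr2 and Retnlg were not called there. Of 5 B cell markers 3 were called in each monocyte library, among them Ms4a1, whose selected region had 30 tags in Cxcr3-/- and 26 in WT monocytes, whereas Pax5 and Vpreb1 were called in none of the 4. Cd3e, Cd8a, Lck, Ncr1, Gata1, Hbb-bs, Alas2, Cpa3, Ms4a2 and Col3a1 were not called at an end in any library. In a bulk culture, more cells of a type and more open chromatin per cell cannot be told apart, and the part of other cell types in the selected regions was not tested. The ends of Cxcr3 itself had at most 23 tags in Cxcr3-/- monocytes, 41 in WT monocytes, 84 in Cxcr3-/- CMP/GMP and 34 in WT CMP/GMP, and without the deleted part these values do not check the genotype.

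With regions defined as above, the selected regions were less confined to gene starts than other regions at gene ends. Which end was not used to choose them, but overlap with a CMP/GMP interval was barred, and this weighs more on starts. A region called in all 4 was in the window of 51.9% of starts and 8.17% of 3′ ends. The differences from regions called in all 4 are therefore partly set by the rule. Of the 873 with a known gene strand, 553 overlapped a 5′ window (63.3%, 60.1 to 66.5), against 70.8% (67.0 to 74.4) of CMP/GMP-only regions and 91.1% (90.5 to 91.6) of regions called in all 4, and 320 touched only a 3′ window. The 63.3% depended on how regions were defined. It was 73.4% by summits within 250 bp, 77.4% from WT libraries alone and 70.6% from Cxcr3-/- libraries alone. With no CMP/GMP interval within 500 bp it was 47.9%, and the other settings gave 61.0 to 64.7%. The comparison sets were not recomputed, so the order against CMP/GMP-only regions is not settled. Within the 5′ window the selected regions were spread out, with 248 summits upstream and 336 downstream of the start. The start lay inside the region in 113 of 584 pairs of region and gene (19.3%, 16.2 to 22.8), against 28.6% for CMP/GMP-only regions and 77.9% for regions called in all 4. The median distance from summit to start was 551.5 bp, against 445 and 94 bp. Monocyte-only chromatin as a whole was rare at gene ends: 6.20% of the 17362 monocyte-only regions, themselves 14.4% of all regions, lay there, against 8.80% of CMP/GMP-only regions and 26.7% of regions called in all 4.

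**Figure D3:**
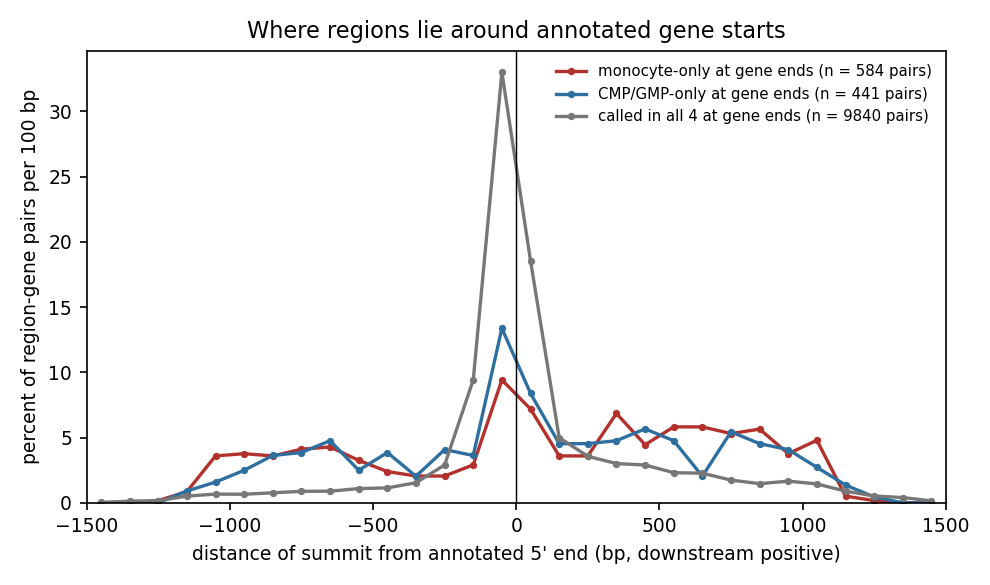
Percent of pairs of region and gene (y axis, per 100 bp) by the distance of the summit from the annotated 5′ end (x axis, bp, downstream positive) for monocyte-only, CMP/GMP-only and all-4 regions at gene ends. Regions called in all 4 pile up at the start, and the monocyte-only curve has a low peak at the start, a dip upstream of it and more pairs downstream (336) than upstream (248).

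Many selected regions stood beside a region that every library had, at a share only slightly above that of all gene ends of the same kind. Of the 558 gene starts with a selected region in the window, 314 (56.3%, 52.0 to 60.4) also had a region called in all 4 libraries there, against 51.9% of all 17274 starts with a known strand. Of 357 gene 3′ ends, 41 did (11.5%, 8.37 to 15.3), against 8.17% of all. Over all 1142 ends the share was 38.97%, against 29.7% of all 43262 gene ends, and 571 ends had no CMP/GMP call of any kind within the window (50%, 47.1 to 52.9), against 63.8% of all gene ends. With a window of 500 bp the share was 24.6%, and with members kept only where no CMP/GMP interval lay within 500 bp it was 14.5%.

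At 113 genes the annotated start itself lay inside a selected region. Under the rule such a start cannot lie in a CMP/GMP interval, so their share without a CMP/GMP call is partly set by it. Of the 558 starts with a selected region in the window, 31.2% had no call of either CMP/GMP library there, and of all starts 40.6%. At 72 of the 113 genes (63.7%) neither CMP/GMP library had a call anywhere in the window. Besides C5ar1, Fblim1 and Mmp13, these included, in order of tags and named after their values were seen, Acod1, the enzyme that makes itaconate in activated macrophages, with 42 tags in Cxcr3-/- and 61 in WT monocytes. They also included the stress-response gene Nupr1 with 36 tags in Cxcr3-/- and 53 in WT monocytes, the LIM protein gene Crip1 with 40 in Cxcr3-/- and 47 in WT, and the receptor gene P2ry10b with 42 in Cxcr3-/- and 43 in WT. The chemokine gene Cxcl3, the macrophage factor gene Spic and the adhesion gene Selp were of this kind as well, at 10 to 17 tags in Cxcr3-/- and 15 to 19 in WT monocytes. The starts of Ltc4s, Gpnmb, F2rl2 and the growth factor gene Igf1 (34 tags in each genotype) lay inside a selected region with a separate CMP/GMP call nearby.

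Promoters under the selected regions were poorer in CpG than promoters open in every library. Sequence was not used to choose the regions, but overlap with a CMP/GMP interval was barred. Promoter bases under regions called in all 4, which are mostly CpG-rich, were thereby left out. The contrast with those promoters and with all promoters is therefore partly set by the rule. Of the 138 genes whose 300 promoter bases overlapped one, 43 had an observed to expected CpG ratio of at least 0.6 (31.2%, 23.6 to 39.6), against 42.8% (35.1 to 50.7) of 166 promoters under CMP/GMP-only regions, 80.1% of 8090 under regions called in all 4, 11.8% of 7270 under no region and 49.0% of all 17274. The interval for monocyte-only regions overlapped that for CMP/GMP-only regions and not those for the other sets. The share differed with what else the window held: 54.1% of the 558 promoters with a selected region anywhere in the 5′ window were CpG-rich, but 27.0% (20.6 to 34.3) of the 174 with no CMP/GMP call in the window and 66.4% (61.4 to 71.1) of the 384 with one.

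**Figure D4:**
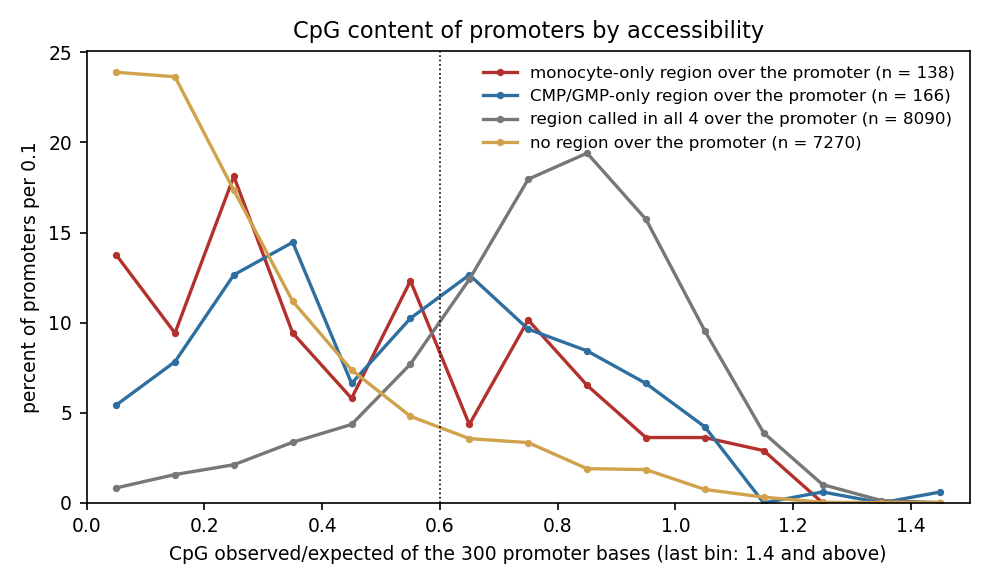
Distribution of the observed to expected CpG ratio over the 300 promoter bases (x axis; y axis, percent of promoters per 0.1) for promoters under monocyte-only, CMP/GMP-only and all-4 regions and under none. The dotted line marks 0.6; 31.2% of promoters under monocyte-only regions lie at or above it, against 80.1% of those under regions called in all 4.

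AP-1 letters were more frequent in the promoters directly under the selected regions than in the comparison sets, and this depended on how the regions were defined. A match to TGANTCA on either strand was present in 30 of the 138 (21.7%, 15.2 to 29.6), against 3.01% (0.985 to 6.89) under CMP/GMP-only regions, 4.14% (3.72 to 4.60) under regions called in all 4, 10.4% (9.71 to 11.1) under no region and 7.09% of all promoters. Among CpG-poor promoters only, 27.4% of 95 had a match, against 5.26% of 95 under CMP/GMP-only regions, 7.60% under regions called in all 4 and 11.2% under none. Of the 34 matches in the 138 promoters, 27 lay inside the selected region (79.4%), which covered 58.1% of the bases. Defining the regions from the WT libraries alone gave 10.2% (7.88 to 12.8), from the Cxcr3-/- libraries alone 17.4% (12.6 to 23.03), and from summits within 250 bp 11.3% (7.94 to 15.6), and of these the WT and summit values lie near the share under no region. Over all 558 promoters with a selected region anywhere in the 5′ window it was 10.9% (8.47 to 13.8).

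The promoters with an AP-1 match belonged to Fblim1, Mmp13, Gpnmb and F2rl2, shown above, and to genes such as P2ry10b, the matrix protein gene Ecm1 (26 tags in Cxcr3-/- and 38 in WT monocytes), the succinate receptor gene Sucnr1 (19 in Cxcr3-/- and 34 in WT), the lectin receptor gene Clec4a2 (18 in Cxcr3-/- and 23 in WT) and the collagenase gene Mmp1a (18 in each). The last 4 are named after their values were seen. Matches to the IRF letters GAAANNGAA were in 14.5% (9.08 to 21.5) of the 138, against 6.63% (3.35 to 11.5), 6.91% (6.37 to 7.48) and 9.74% (9.07 to 10.4) of promoters under CMP/GMP-only regions, regions called in all 4 and none, among them C5ar1, Ifi205, Ifit3 and, outside the selected region itself, Gbp3. Of the 27 IRF matches, 16 lay inside the selected region (59.3%), close to its 58.1% of the bases. TATA letters were in 22.5% (15.8 to 30.3), against 7.23%, 6.21% and 22.7% in the same order, so in this the promoters were like those under no region. GC boxes (GGGCGG) were in 69 of the 138 (41.4 to 58.6%), against 52.4%, 69.2% and 18.6%, and the ETS letters CCGGAAG in 2.17%, against 4.82%, 21.1% and 2.86%. A match is a description of letters and not a bound site.

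**Figure D5:**
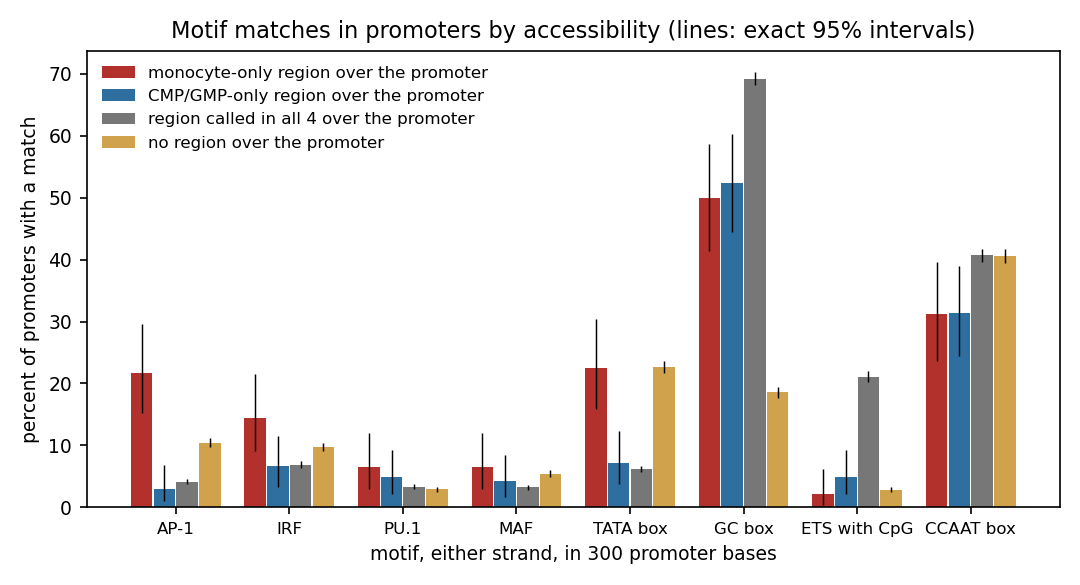
Percent of promoters with a match to 8 motifs (y axis; lines are exact 95% intervals) for promoters under monocyte-only, CMP/GMP-only and all-4 regions and under none. AP-1 letters stand at 21.7% under monocyte-only regions, against at most 10.4% in the other 3 sets.

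The surroundings of the genes held monocyte-only regions more often than those of genes with a CMP/GMP-only region, and about as often as those of genes with a region called in all 4. A further monocyte-only region lay within 50 kb of the start at 69.2% (65.2 to 73.0) of the 558 genes with a selected region at the start, against 52.4% (47.6 to 57.2) of genes with a CMP/GMP-only region, 64.7% (63.7 to 65.7) of 8652 genes with a region called in all 4 and no selected region, and 51.0% of all genes. Monocyte-only regions made up 13.9% of all further regions in that distance, against 11.3%, 13.04% and 12.5% in the same order.

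Scaled on the regions called in all 4 libraries, Cxcr3-/- and WT monocytes differed little in median signal at the selected regions. The ratio itself was not used to choose them, but a call in both monocyte libraries was, which favours ratios near 0. Regions called in a single library were left out: at gene ends, 1470 in WT monocytes alone and 405 in Cxcr3-/- monocytes alone. At a mean of at least 30 tags, 210 regions could be compared and 867 could not. Their log2 ratio of Cxcr3-/- over WT monocytes had a median of -0.06 (-0.15 to 0.04) and an SD of 0.41 over regions, with 98 above and 112 below 0. The median was 0.03 for monocyte-only regions away from gene ends and -0.06 for regions called in all 4 at gene ends. It moved with gene density, counted as the genes in a 1 Mb window centred on the region. The selected regions had medians of 0.10, 0.05 and -0.17 where genes were fewest (up to 8), intermediate (up to 16) and most. Regions called in all 4 at gene ends had 0.15, -0.01 and -0.20 in the same order.

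Past 2-fold, 1 selected region was higher in Cxcr3-/- and 3 were higher in WT monocytes, against 0.274% and 0.395% of the 30652 regions compared. Olfr111, an olfactory receptor gene, had 94 tags in Cxcr3-/- and 48 in WT monocytes at its 3′ end, a log2 ratio of 1.31 (0.80 to 1.85). Micall2, a regulator of actin and membrane traffic, had 16 tags in Cxcr3-/- and 51 in WT monocytes, a log2 ratio of -1.33 (-2.24 to -0.49). Map4k4, a kinase gene, had 18 tags in Cxcr3-/- and 54 in WT monocytes and a log2 ratio of -1.24 (-2.10 to -0.45). The vesicle fusion gene Ykt6 had 16 tags in Cxcr3-/- and 45 in WT monocytes and a log2 ratio of -1.15 (-2.07 to -0.30). Next in size were Slc36a2, an amino acid transporter gene, at 0.96 (0.24 to 1.71), Ankrd34a at -0.94 (-1.82 to -0.12) and Tm4sf19 at -0.91 (-1.68 to -0.19). Scaled by background tags the median was -0.43 and 0 and 18 regions passed 2-fold toward Cxcr3-/- and WT, and with no minimum tag number the median was 0.07 and the counts were 17 and 8, so neither the direction of the median nor these counts is fixed by the data.

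Regions called in both monocyte libraries and just 1 CMP/GMP library show how near the selection lies to the detection limit. At gene ends there were 880 of these, 775 with a call in Cxcr3-/- CMP/GMP and 105 with a call in WT CMP/GMP. Their median was 21 tags in the Cxcr3-/- CMP/GMP library and 13 in the WT CMP/GMP library. That is below the medians of 29 and 21 for all intervals of those libraries, but above the 10th percentiles of 15 and 11. Their monocyte values were like those of the selected regions, with medians of 16 tags in Cxcr3-/- for both kinds, and of 20 and 18 in WT monocytes. The background was 97.2 tags per 10 kb in Cxcr3-/- monocytes, 95.6 in WT monocytes, 194 in Cxcr3-/- CMP/GMP and 135 in WT CMP/GMP. Of the 2 CMP/GMP libraries the one with more background also had more calls, but WT monocytes had the most calls and the lowest background of the 4, and the part of depth in the counts was not tested.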

How the data were processed

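Omni-ATAC-seq of cultured mouse bone marrow-derived cells gave 1 deposited peak list for each of 4 groups, assigned by the labels. Trim Galore, Bowtie2, SAMtools and the build mm10 are named in the submitters' processing notes. Which peak caller was used, and whether the duplicate sequencing runs of the labels were pooled, is not given here. The deposited fold ratio, -log10 p and -log10 q values are the authors' own for each interval's summit. The deposited score was not used.

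From the fold and -log10 p, the whole-number tag pileup at each summit was recovered (1 added tag, Poisson background, tolerance 0.001), without a solution for 0, 1, 2 and 0 intervals in Cxcr3-/- monocytes, WT monocytes, Cxcr3-/- CMP/GMP and WT CMP/GMP. The lists hold 78244, 98257, 80171 and 69521 intervals in that order. Scaling factors of 0.846, 1.08, 1.35 and 0.826, the median over regions called in all 4, divide the pileups. Gene ends and promoter sequences came from RefSeq tables of GRCm38.p6, whose coordinates were used as mm10, with strand for 17274 of 21631 protein-coding genes. Of 682 listed symbols, Chi3l1 had no match. Of 18 motifs searched, 8 are plotted. Analyses used Python 3.11.15, pandas 2.3.3, SciPy 1.17.1 and matplotlib 3.10.9, and the recovery and merging were tested on simulated data. Members, gene lists and motifs were chosen with earlier results of these data known. Named genes are those of the 12 strongest regions, up to 4 per list, the 5 largest ratios each way, genes with 2 or more regions, the regions nearest the 1 kb limit and the markers; other list members and genes are named beyond that rule. The values of 1 listed gene are not reported here.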

Additional observations from a re-analysis of the deposited data

How the results depend on the processing

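No paired analysis was possible because the results come from no test: presence in the monocyte and CMP/GMP libraries of both genotypes chose the regions, and the Cxcr3-/- over WT ratio has 1 library on each side. Of 85 values recomputed under 17 settings, 44 kept their size and 41 moved. With gene-end windows of 500 bp and 2 kb there were 606 and 1767 regions at 631 and 1850 genes, an all-4 neighbour at 24.6% and 49.9% of ends, 0 and 2 regions past 2-fold toward Cxcr3-/-, and, at 2 kb, 5 toward WT, while CpG-rich promoters were 48.4% at 500 bp. With no CMP/GMP interval within 500 bp, 669 regions at 682 genes remained, 47.9% at a 5′ end, 14.5% of ends with an all-4 neighbour and 35.5% of promoters CpG-rich. Presence by summits within 250 bp gave 73.4% at a 5′ end, 55.9% with an all-4 neighbour, 65.1% CpG-rich and AP-1 letters in 11.3%. Added after seeing the data, WT libraries alone gave 4516 regions at 4168 genes, 77.4% at a 5′ end, 54.9% with an all-4 neighbour, 65.4% CpG-rich and AP-1 letters in 10.2%, and Cxcr3-/- libraries alone gave 1761 at 1775 genes, 70.6%, 51.3% and 60.0% for the first 3 shares. An all-4 neighbour was at 31.5% with −log10 q of at least 5 and 31.4% with lists of equal length, which shared 715 and 680 of the genes, and any CMP/GMP neighbour at 50%. A CpG ratio of at least 0.75 gave 38.5%. Scaling by background tags gave a median log2 ratio of -0.43 with 0 regions past 2-fold toward Cxcr3-/- and 18 toward WT. With no minimum tag number the median log2 ratio was 0.072 and the counts were 17 and 8, and a mean of at least 60 tags left 0 toward WT. The causes were not tested. The median of 16 tags in Cxcr3-/- and 20 in WT monocytes leaves each region a wide counting interval.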

Other observations

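Gene families, of which some members are also on the lists, were counted by symbol stem after the values had been seen, so their shares are descriptions. Only stems with at least 6 genes with a selected region were kept, so a small family could appear only with a high share. The high shares of small families below are therefore partly set by that filter. The kept stems not described below had shares from 2.10% (Gm) to 15.8% (Sh). Of 19 Wnt genes, which encode secreted ligands of cell fate signalling, 6 had a monocyte-only region at an end (31.6%), against 5.13% of all protein-coding genes: Wnt1, Wnt2b, Wnt4, Wnt5b, Wnt9a and Wnt10b, with 8 to 15 tags in Cxcr3-/- and 10 to 18 in WT monocytes. A region called in all 4 libraries was at the ends of 6 of the 19 as well. Of 23 matrix metalloproteinase genes, 6 had one (26.1%), namely Mmp1a, Mmp9, Mmp10, Mmp12, Mmp13 and Mmp27, with 9 to 34 tags in Cxcr3-/- and 11 to 36 in WT monocytes. All but Mmp9 lie near one another on chromosome 9, so they are not independent of each other. Of 41 Zbtb genes, which encode zinc finger repressors, 8 had one (19.5%), beside a region called in all 4 at 85.4% of the family. Olfactory receptor genes had 6 of 1110 (0.541%), and 0.811% had a region called in all 4; the 6 were Olfr67, Olfr111, Olfr368, Olfr432, Olfr433 and Olfr556, with 11 to 94 tags in Cxcr3-/- and 8 to 48 in WT monocytes.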
